A study of Mus musculus with 9 samples.

Results

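The 35 genes described here are 12 ligands and 23 receptors of the tumour necrosis factor (TNF) superfamily, a family defined by name and picked for description with earlier results of these data known, out of 18193 genes with a probe set in the table. A total of 32 had a probe set that named them alone, and of several such probe sets the brightest, by its mean over the 9 arrays, stands for the gene. Of these, 28 were bright enough to be tested, 9 ligands and 19 receptors. Total RNA came from CD11b+ splenocytes, which the labels call monocytes: adherent spleen cells picked out with magnetic beads by the integrin CD11b, which granulocytes, natural killer cells and some dendritic and B cells can carry too. It was hybridised to Affymetrix MOE430 arrays. All animals were C57BL/6 mice. The 6 HighThreat arrays held RNA of 1 animal each, put through repeated social threat, and the 3 LowThreat arrays, called control here, each held a pool of 2 animals kept without threat (pools 1-2, 3-4 and 5-6). Sex, age, the kind of threat and a processing batch were not given in the sources used here. The study asks whether social threat goes with different expression in these cells. The p-values measure the spread between these arrays, and a pool of 2 animals can vary less than single animals.

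TNF ligands are mostly membrane proteins that form trimers, and several are cut from the surface by proteases. They bind receptors on the same or other cells, which recruit TRAF adaptors or death-domain adaptors and switch on NF-kappaB and kinase signalling or cell death. In the spleen, TNF and the lymphotoxins serve inflammation and the organisation of lymphoid tissue, BAFF and APRIL serve B cells and plasma cells, and OX40, 4-1BB, CD27, GITR and their ligands are known for costimulation of T cells.

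The cells were bright for the sort antigen and for phagocyte genes. Itgam, which encodes CD11b, had a mean of 7.93 in control and 8.50 in threat arrays. The sort antigen was thus higher in threat arrays, by 0.55 to 0.59 under 19 alternative settings (limma, adjusted p up to 3.32e-05). Some lymphocyte genes were at least as bright as Itgam in the control pools. The B cell gene Cd79a, for one, had a mean of 8.88 in control and 6.57 in threat arrays. The mean of the 12 tested B cell markers was lower, at 6.85 in control and 4.88 in threat arrays. The 10 tested monocyte markers had a mean level per array of 9.48 to 9.60 in control and 9.52 to 9.61 in threat arrays. That mean hides opposite changes, as 5 of the 10 were higher and 4 lower in threat arrays (limma, adjusted p under 0.05). All values are log2 expression values made by RMA, a method that corrects, normalizes and summarises probe signals. Array medians lay between 3.19 and 3.22, and arrays correlated across genes at 0.996 to 0.998 within a group and at 0.972 to 0.977 between groups. The excess of the 3' over the 5' beta-actin probe set, which grows as RNA degrades, came to 0.472 ± 0.063 in the pools and 0.357 ± 0.034 in the threat animals (SD, n = 3 and 6, exact permutation p = 0.0238). The same measure from Gapdh came to -0.035 in the pools and -0.071 in the threat animals (exact permutation p = 0.512). The part of RNA integrity in any result below was not tested.

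The family changed in both directions. Among the 9 tested ligands, 4 were higher and 3 lower in threat animals, and among the 19 tested receptors 8 were higher and 5 lower (limma, Benjamini-Hochberg adjusted p under 0.05 over all 13078 genes tested). That makes 20 of 28 members called, 71.4%, where 45.8% of all tested genes were called, 23.8% as higher and 22.0% as lower. Values of threat and control arrays did not overlap for 17 of the 28 members, against 41.8% of all tested genes. The median difference, threat minus control, was 0.027 for the ligands and 0.14 for the receptors, against 0.029 for all genes. The median size of the difference regardless of sign was 0.32 for the members and 0.15 for all genes. Threat and control arrays also differed in markers of several cell types, given with the results below, and in bulk RNA fewer cells of a type and less RNA per cell cannot be told apart.

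**Figure D1:**
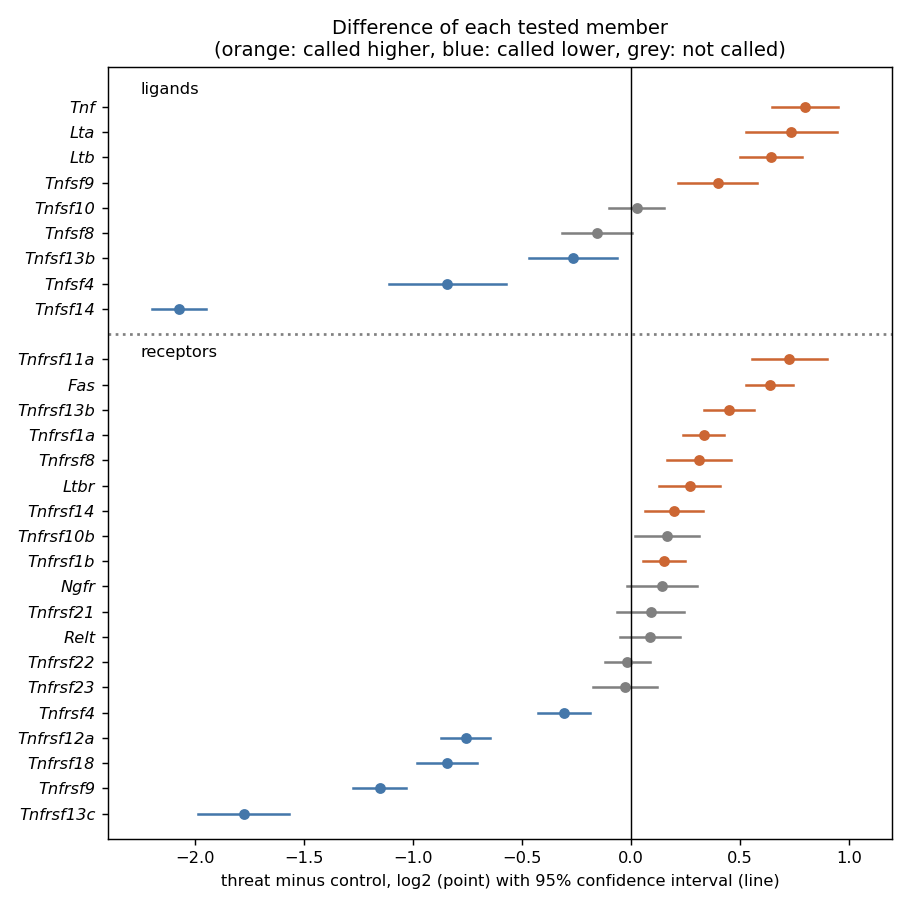
Difference between threat animals (n = 6) and control pools (n = 3) for the 28 tested members on the log2 scale, ligands above and receptors below, with limma's 95% confidence interval as a line. Points right of 0 were higher in threat animals. The largest fall among ligands was that of Tnfsf14 (-2.07) and among receptors that of Tnfrsf13c (-1.78), and no rise exceeded the 0.80 of Tnf.

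Tnf, Lta and Ltb lie side by side on chromosome 17 in the RefSeq gene table, and all 3 rose. Tnf, the namesake proinflammatory cytokine, read 9.86, 9.92 and 10.03 in the control pools, and from 10.52 to 10.84 with a median of 10.76 in the threat animals. Every threat animal lay above every pool. The lowest, threat animal 1, stood apart from the other 5, which ran from 10.75 to 10.84. Tnf rose by 0.80 (SE 0.069, adjusted p = 1.12e-06), a 1.74-fold difference. The difference of Tnf was 0.84 without threat animal 1 (adjusted p = 2.08e-07). Lta, which encodes lymphotoxin alpha, a secreted ligand of the TNF receptors, was dim, with 3.78, 3.84 and 3.50 in the pools and 4.29 to 4.73 (median 4.43) in the threat animals. It rose by 0.74 (SE 0.096, adjusted p = 4.01e-05), without overlap. Ltb encodes lymphotoxin beta, which anchors lymphotoxin alpha in the membrane for binding to the lymphotoxin beta receptor. Its values were 9.51, 9.36 and 9.34 in the pools and 9.91 to 10.20 (median 10.05) in the threat animals, again without overlap, and it rose by 0.64 (SE 0.065, adjusted p = 4.36e-06).

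The B cell markers, whose lineage is known to express Lta and Ltb, moved the other way. Of 12 tested B cell markers 11 fell and none rose, and their mean level per array was 6.75 to 6.98 in control pools and 4.68 to 5.09 in threat animals. The exception was Pax5, a B cell transcription factor, which differed by 0.0077. T cell markers fell too, 7 of 8, from 4.93 to 4.99 down to 4.23 to 4.32, with Cd3g, Trat1 and Cd28 under the filter. The exception was Cd3e, a gene of the T cell receptor complex, which differed by -0.041 (adjusted p = 0.683). The median difference of the T cell markers was -0.38. Natural killer cell markers fell in 10 of 11, from 5.44 to 5.60 down to 3.82 to 4.00. The exception was Ncr1, a natural killer cell receptor gene, dim at 2.96 in control and 2.87 in threat arrays (adjusted p = 0.294). Granulocyte markers rose in 15 of 16, from 8.57 to 8.72 up to 9.89 to 10.31. The part of these shifts in the rise of Tnf, Lta and Ltb was not tested.

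**Figure D2:**
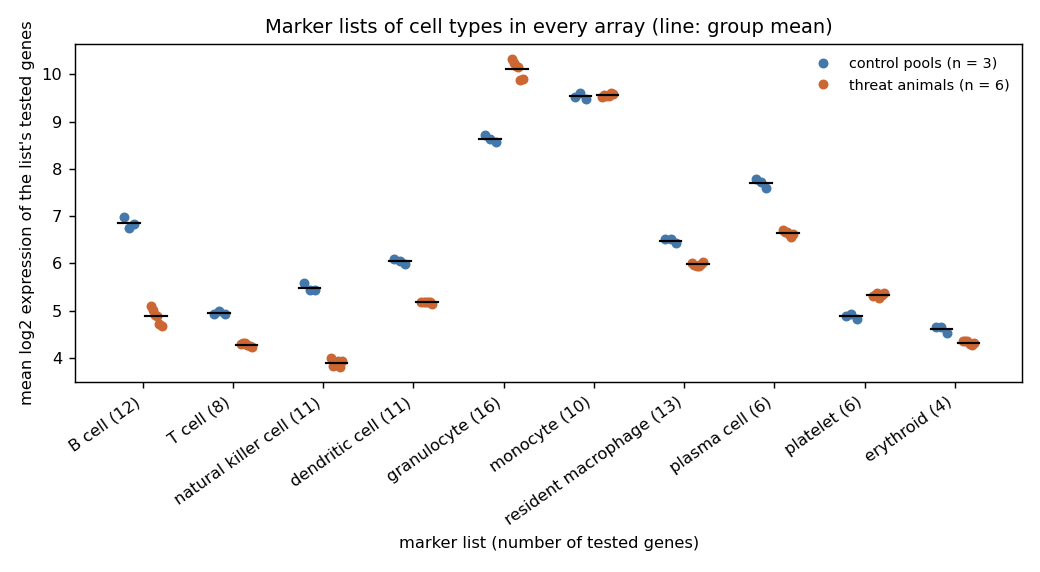
Mean log2 expression of the tested genes of each marker list in every array, with control pools (n = 3) and threat animals (n = 6) as points and group means as lines; the number of genes is in brackets on the axis. B cell, T cell, natural killer cell, dendritic cell, resident macrophage, plasma cell and erythroid lists lay lower in every threat animal. Of the 4 tested erythroid genes only 1 was called lower and 1 was called higher. The granulocyte and platelet lists lay higher in every threat animal. The mean levels of the monocyte list overlapped between groups, though 5 of its markers rose and 4 fell.

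The stretches of 250 bases before the start of Tnf, Lta and Ltb are shown because these neighbours rose together. They are from RefSeq (GRCm38.p6), which holds such a stretch for 29 of the 35 members and 32 starts. Both strands were searched for the kappaB consensus of NF-kappaB, for the AP-1 site TGANTCA and for the TGACG core of the cAMP response element, and matches of different motifs do not overlap in the sequences printed here. Capitals mark every match.
Tnf (chr17:35202008-35202257, minus strand): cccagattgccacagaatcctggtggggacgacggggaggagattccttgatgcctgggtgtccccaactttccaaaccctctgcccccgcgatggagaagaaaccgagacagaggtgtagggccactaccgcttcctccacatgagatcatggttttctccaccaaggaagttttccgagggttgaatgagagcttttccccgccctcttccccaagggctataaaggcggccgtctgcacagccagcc
Lta (chr17:35205352-35205601, minus strand): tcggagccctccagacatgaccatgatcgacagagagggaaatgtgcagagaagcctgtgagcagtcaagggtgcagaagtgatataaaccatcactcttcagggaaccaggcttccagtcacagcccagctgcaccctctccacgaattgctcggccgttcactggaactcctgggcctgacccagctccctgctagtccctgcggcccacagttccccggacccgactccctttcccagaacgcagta
Ltb (chr17:35194257-35194506, plus strand): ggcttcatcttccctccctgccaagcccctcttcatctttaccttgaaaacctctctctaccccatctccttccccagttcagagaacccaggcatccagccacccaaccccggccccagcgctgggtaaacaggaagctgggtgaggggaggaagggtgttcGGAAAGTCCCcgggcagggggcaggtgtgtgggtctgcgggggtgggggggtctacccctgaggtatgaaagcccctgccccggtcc
Only Ltb of the 3 holds a match, a kappaB consensus beginning 87 bases before the start. That consensus was found in 3 of the 32 member stretches, those of Ltb, Tnfrsf8 and Tnfrsf9, and in 3.9% of all 32851 stretches in the table. The AP-1 site was found in 6 of 32 and in 6.75% of all, the TGACG core in 5 of 32 and in 17.8% of all. A match is a description of letters, and no match says only that these letters are not in this window.

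Tnfsf14 fell furthest of all members. It encodes LIGHT, a ligand of the lymphotoxin beta receptor and of HVEM. The pools read 7.09, 7.01 and 6.96, and the threat animals 4.85 to 5.06 with a median of 4.94. The gap between the groups was many times the range within either. Tnfsf14 fell by 2.07 (SE 0.057, adjusted p = 8.22e-11), a 4.21-fold difference that ranked 63 by size among the 13078 genes tested. Its other probe set fell by 1.78, from 6.40 ± 0.11 to 4.61 ± 0.12 (SD, n = 3 and 6). Its stretch before the start is shown as that of the largest fall.
Tnfsf14 (chr17:57194182-57194431, minus strand): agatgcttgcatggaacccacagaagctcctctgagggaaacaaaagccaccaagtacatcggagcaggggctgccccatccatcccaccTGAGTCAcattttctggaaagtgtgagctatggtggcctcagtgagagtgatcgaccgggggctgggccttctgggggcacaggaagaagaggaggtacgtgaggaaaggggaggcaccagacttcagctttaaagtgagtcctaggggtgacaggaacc
It holds an AP-1 site 160 bases before the start and neither other motif. On chromosome 17 Cd70 is the only protein-coding gene between Tnfsf14 and Tnfsf9. Tnfsf9 encodes the 4-1BB ligand, carried by antigen-presenting cells, and moved the other way. Its pools read 7.30, 7.34 and 7.50 and its threat animals 7.50 to 7.89, with threat animal 1 equal to pool 5-6 at 7.504 and the other 5 above every pool. The rise was 0.40 (SE 0.084, adjusted p = 0.00173).

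Tnfsf4, which encodes the OX40 ligand of activated antigen-presenting cells, was the other ligand with a fall above 0.5. It read 6.30, 5.92 and 5.64 in the pools, the widest spread of any member in the control group, and 4.93 to 5.24 (median 5.17) in the threat animals. The groups did not overlap, and Tnfsf4 fell by 0.84 (SE 0.12, adjusted p = 1.06e-04). The difference of Tnfsf4 was -0.67 without control pool 1-2, the highest (adjusted p = 0.000397). Dendritic cell markers fell beside Tnfsf4 and Tnfsf14, as did the B cell, T cell and natural killer cell markers given above. Of 11 tested dendritic cell markers, 9 fell and none rose. Their mean level was 5.99 to 6.08 in pools and 5.15 to 5.19 in threat animals. Whether any of these cell types accounts for part of either fall was not tested.

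The remaining ligands differed little or lay near background. Tnfsf13b, which encodes the B cell survival factor BAFF, read 4.71, 4.47 and 4.33 in the pools and 4.09 to 4.41 in the threat animals, with overlap. Its fall of 0.27 (SE 0.093, adjusted p = 0.0340) was called, but not without control pool 1-2 (-0.16, adjusted p = 0.199), control pool 3-4 (0.0643) or threat animal 4, 5 or 6 (0.0642, 0.0621 and 0.0632), and not after quantile normalization (0.0569) or with threat animals averaged in number pairs (0.0666). Tnfsf8, the CD30 ligand gene, differed by -0.16 (95% confidence interval -0.32 to 0.0058, adjusted p = 0.108), but by -0.20 without threat animal 6 (adjusted p = 0.0206). Tnfsf10, which encodes the death ligand TRAIL, read 2.701 in 4 arrays, all 3 pools among them, just over the filter value of 2.66, and differed by 0.027 (95% confidence interval -0.099 to 0.15). Tnfsf11, the RANK ligand gene, had a mean of 1.86 in pools and 2.02 in threat animals, under the filter. Tnfsf12 and Tnfsf13, the TWEAK and APRIL genes, are neighbours and had no probe set of their own. A probe set shared by both and their joined transcript Tnfsfm13 went from 6.59 ± 0.17 to 7.06 ± 0.080 (SD, n = 3 and 6), a rise of 0.47 (adjusted p = 0.000476 over all probe sets above the filter), while another, shared by Tnfsf12 and Tnfsfm13, differed by -0.11 (adjusted p = 0.257). The genes behind these signals could not be told apart.

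**Figure D3:**
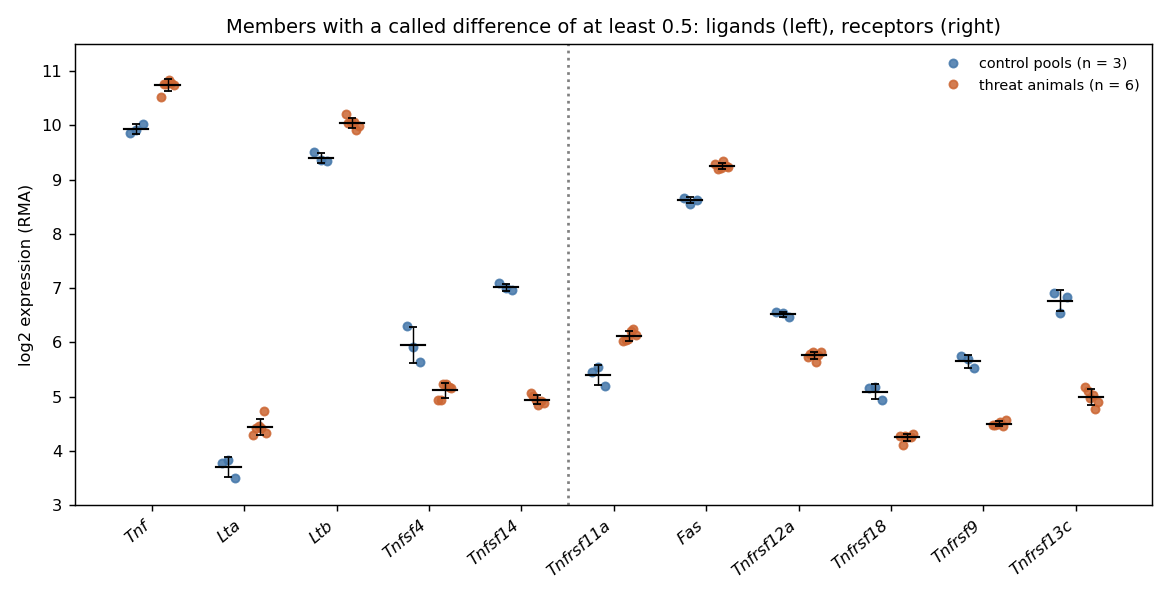
Log2 expression in every array of the 11 members with a called difference of at least 0.5, ligands left and receptors right of the dotted line. Points are control pools (n = 3) and threat animals (n = 6), long lines are means and bars the SD; the groups do not overlap in these 11 genes, which the choice of large called differences makes likely.

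Tnfrsf1a, Tnfrsf1b and Ltbr, receptors of TNF and the lymphotoxins, rose by small amounts. Tnfrsf1a, the broadly expressed receptor with a death domain, read 8.43, 8.45 and 8.41 in the pools and 8.72 to 8.81 in threat animals, a rise of 0.33 (SE 0.043, adjusted p = 3.63e-05) without overlap. Tnfrsf1b, the TNF receptor of leukocytes without a death domain, read 10.42, 10.47 and 10.37 in the pools and 10.51 to 10.60 in threat animals. Its rise of 0.15 (SE 0.045, adjusted p = 0.0148) was not called without control pool 5-6 (0.13, adjusted p = 0.0584), and a dimmer probe set, which differed by 0.24 with an SD of 0.20 among threat animals, did not pass (adjusted p = 0.0928). Ltbr, the lymphotoxin beta receptor gene, went from 6.24 ± 0.14 to 6.51 ± 0.068 (SD, n = 3 and 6), a rise of 0.27 (adjusted p = 0.00403). Tnfrsf14, which encodes HVEM, a receptor of LIGHT, rose by 0.20 (adjusted p = 0.0183) with overlapping values, and not without control pool 1-2 (adjusted p = 0.0711) or 5-6 (adjusted p = 0.0843). Thus the ligand gene Tnfsf14 fell and its receptor genes Ltbr and Tnfrsf14 did not.

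The receptors of BAFF moved apart. Tnfrsf13c, which encodes the BAFF receptor that B cells need to survive, had the largest fall of any receptor. It read 6.92, 6.55 and 6.84 in the pools and 4.77 to 5.18 (median 5.00) in the threat animals, without overlap. It fell by 1.78 (SE 0.095, adjusted p = 1.74e-08), a 3.43-fold difference. The 12 B cell markers had a median difference of -2.30 in the same arrays. Tnfrsf13b, which encodes TACI, a receptor of BAFF and APRIL that B cells also carry, read 5.71, 5.71 and 5.56 in the pools and 6.05 to 6.18 in the threat animals. Each threat value exceeded each pool, and the rise was 0.45 (SE 0.053, adjusted p = 1.72e-05). Plasma cells are known to carry TACI as well. Of 6 tested plasma cell markers 5 fell and 1 rose, with a mean level of 7.60 to 7.79 in pools and 6.55 to 6.72 in threat animals. The part of these markers in either difference was not tested.

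Of the receptors known from T cells, Tnfrsf9, Tnfrsf18 and Tnfrsf4 fell, Tnfrsf8 rose, and Cd27 and Tnfrsf25 were too dim to test. Tnfrsf9, which encodes 4-1BB, read 5.75, 5.69 and 5.52 in the pools and 4.45 to 4.57 (median 4.49) in the threat animals. It fell by 1.15 (SE 0.056, adjusted p = 7.25e-09), a 2.22-fold difference, while the gene of its ligand, Tnfsf9, rose. A further probe set of Tnfrsf9 fell by 1.48, to 2.80 ± 0.15 (SD, n = 6), near the filter value, and the remaining probe set lay under it with a mean of 1.88. Tnfrsf18, which encodes GITR, read 5.16, 5.18 and 4.94 in the pools and 4.12 to 4.31 (median 4.26) in the threat animals, and fell by 0.84 (SE 0.063, adjusted p = 3.09e-07). Its neighbour on chromosome 4, the OX40 gene Tnfrsf4, fell as well, from 5.23 ± 0.025 to 4.93 ± 0.079 (SD, n = 3 and 6), by 0.31 (adjusted p = 0.000473). Both OX40 and its ligand were thus lower. Tnfrsf8, the CD30 gene and neighbour of Tnfrsf1b, was dim and rose by 0.31 (SE 0.067, adjusted p = 0.00201), from 3.50 ± 0.14 to 3.81 ± 0.082. Cd27, a receptor of lymphocytes, was under the filter and not tested, with a mean of 2.61 in pools and 2.22 in threat animals and no overlap. Tnfrsf25, the gene of death receptor 3, was under it too, at 2.15 and 2.11. The T cell and natural killer cell markers, which fell as given above, moved with Tnfrsf9, Tnfrsf18 and Tnfrsf4, and their part was not tested.

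Tnfrsf9 has a pair of starts in the RefSeq table. The stretch of 250 bases before the downstream start is shown because it alone among the member starts holds overlapping kappaB matches, beginning 43 and 42 bases before it, together with an AP-1 site at 15 bases; capitals mark them.
Tnfrsf9 (chr4:150927749-150927998, plus strand): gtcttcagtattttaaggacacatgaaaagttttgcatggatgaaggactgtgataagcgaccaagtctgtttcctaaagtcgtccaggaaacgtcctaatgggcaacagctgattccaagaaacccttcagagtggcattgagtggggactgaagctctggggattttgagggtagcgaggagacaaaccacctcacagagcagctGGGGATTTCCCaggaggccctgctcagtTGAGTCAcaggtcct
The stretch before the other start holds none of the 3 motifs. Tnfrsf9 fell, whereas Ltb and Tnfrsf8, the other members with a kappaB match, rose.

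Among receptors that can signal death, Fas stood out. It encodes the receptor of Fas ligand and read 8.66, 8.56 and 8.63 in the pools and 9.19 to 9.34 (median 9.25) in the threat animals, without overlap. It rose by 0.64 (SE 0.050, adjusted p = 4.53e-07). Fasl, the gene of its ligand, which cytotoxic lymphocytes express, fell by 2.33 (SE 0.14, adjusted p = 4.32e-08), from 4.85 to 2.51, a value in the background range, so the size is approximate. Tnfrsf10b, a TRAIL receptor gene, differed by 0.16 (adjusted p = 0.0638) and did not pass. It passed without threat animal 3 (adjusted p = 0.0335) or 5 (0.0410), with pools at weight 2 (0.0342) and with a replicate block (0.0484), and its exact permutation p was 0.0476. Tnfrsf21, which encodes death receptor 6, differed by 0.091 (95% confidence interval -0.064 to 0.25). Tnfrsf22 and Tnfrsf23, neighbouring decoy receptors on chromosome 7, differed by -0.017 and -0.027 (95% confidence intervals -0.12 to 0.088 and -0.17 to 0.12). Tnfrsf23 read 4.388 in 4 of 9 arrays. A probe set shared by these 2 genes differed by -0.10 (adjusted p = 0.172), and Tnfrsf26, beside them, was not analysed here.

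Of the other receptors, Tnfrsf11a rose and Tnfrsf12a fell. Tnfrsf11a encodes RANK, which myeloid precursors of osteoclasts and dendritic cells carry. It read 5.45, 5.55 and 5.19 in the pools and 6.03 to 6.25 (median 6.11) in the threat animals, and rose by 0.73 (SE 0.079, adjusted p = 7.95e-06). A further probe set rose by 0.69. Tnfrsf12a, which encodes Fn14, the receptor of TWEAK, read 6.55, 6.54 and 6.47 in the pools and 5.65 to 5.83 (median 5.77) in the threat animals. It fell by 0.76 (SE 0.052, adjusted p = 1.33e-07), and its other probe set by 0.69. Groups did not overlap for either gene. Relt, a receptor of lymphoid tissue, differed by 0.087 (95% confidence interval -0.049 to 0.22), and Ngfr, the neurotrophin receptor p75, by 0.14 (-0.017 to 0.30). Eda2r, a receptor of ectodysplasin, was under the filter at 1.55 and 1.49.

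**Figure D4:**
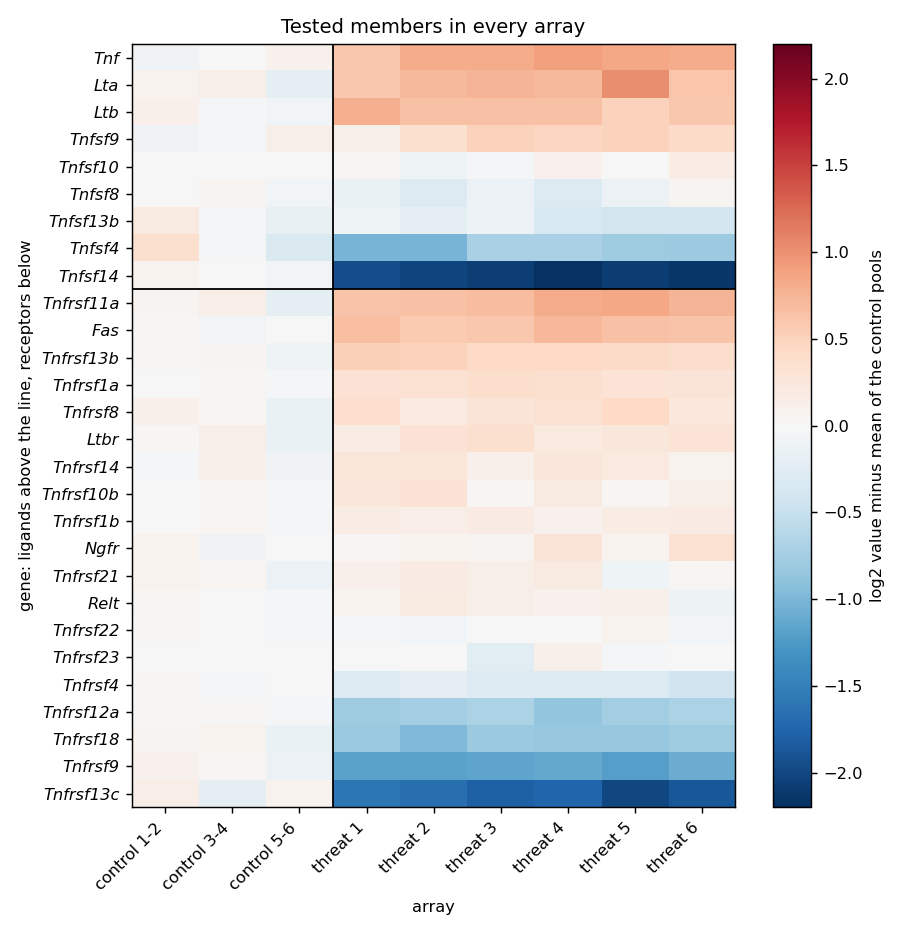
Each tested member in each array as its log2 value minus the mean of the 3 control pools, red above and blue below; ligands are above the horizontal line, receptors below it, and threat animals right of the vertical line. The 6 threat animals show the same direction for the members with the largest differences, such as Tnf, Fas, Tnfsf14 and Tnfrsf13c.

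The threat animals varied in these genes about as much as in all tested genes. The median SD of a tested member was 0.092 among the 6 threat animals and 0.088 among the 3 pools, near the 0.085 and 0.083 of all tested genes. Some values drifted with the number of the animal. From threat animal 1 to 6, the mean of the B cell markers fell at each step, from 5.09 to 4.68. Granulocyte markers went from 10.31 to 9.90 and Tnfrsf13c from 5.18 to 4.90, though not at each step. Natural killer cell markers, at 4.00 in animal 1 and 3.94 in animal 6, showed no such order. The part of the animal number in any result was not tested.

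Other genes of the superfamily and of its signalling chain were taken from lists of known genes. Among superfamily genes that are not in the set of 35, 4 of 11 could be tested, and Fasl was the only one called. Of 23 tested adaptor and kinase genes, 7 rose and 6 fell, and the median difference was -0.0052. Map3k14, which encodes NIK, the kinase of the noncanonical NF-kappaB route downstream of lymphotoxin beta, BAFF and RANK receptors, fell by 1.31 (SE 0.074, adjusted p = 2.62e-08). Mlkl and Ripk3, which carry out necroptosis, rose by 0.78 (SE 0.086) and 0.66 (SE 0.071, adjusted p = 9.54e-06 and 8.01e-06). The share called, 56.5%, compares with the 45.8% of all genes.

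Of 15 tested genes listed as inhibitors of TNF receptor signalling, 7 rose and none fell, with a median difference of 0.11. Their share of 46.7% called is near that of all genes in either direction, but all 7 were higher, and 23.8% of all genes were called higher. Tnfaip8l2, which encodes the dampening protein TIPE2, rose by 0.79 (SE 0.068), N4bp1, a suppressor of NF-kappaB signalling, by 0.67 (SE 0.055) and Tnip1, a partner of the deubiquitinase A20, by 0.66 (SE 0.048), with adjusted p = 1.16e-06, 7.58e-07 and 2.45e-07. The list also held Tifa, known as an adaptor that activates TRAF6 and so no inhibitor, which is among the 7 that rose. Of 9 tested shedding and processing genes, 2 rose and 1 fell. The sheddase gene Adam17, which releases TNF from the membrane, rose by 0.30 (SE 0.058, adjusted p = 9.44e-04). Litaf differed by -0.15 (adjusted p = 0.0357) and Frmd8 by 0.12 (adjusted p = 0.0413), and neither kept its call throughout. Without control pool 1-2 their adjusted p was 0.143 and 0.132. Adam17 was the only call of the list then, and also without threat animal 1, 4, 5 or 6.

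Genes listed as induced by TNF were mostly higher. Of 15 tested, 9 rose and 1 fell, with a median difference of 0.25, and 66.7% were called against 45.8% of all genes. The 5 that were not called differed by -0.17 (Cxcl1) to 0.092 (Ccl20). The count depends on how the lists were divided, as further genes that TNF can induce stood in the lists above. Of these, Tnfaip3 rose by 0.17 and Birc3 by 0.19. Nfkbia (-0.022), Zfp36 (-0.14) and Traf1 (-0.19) were not called. Ptges, the inducible prostaglandin E synthase gene, rose by 1.65 (SE 0.11, adjusted p = 7.53e-08), and the mitochondrial superoxide dismutase gene Sod2 by 0.77 (SE 0.053, adjusted p = 1.37e-07). Vcam1 fell by 0.96 (SE 0.083, adjusted p = 1.15e-06). Vcam1, an adhesion molecule, is also a marker of resident splenic macrophages. Of 13 tested genes of that list, 7 fell, Vcam1 itself among them. The 2 that rose were Adgre1 (0.69) and Slc40a1 (0.28), and 4 were not called, Spic (-0.056) among them. The mean level of the list, Vcam1 included, was 6.42 to 6.51 in pools and 5.94 to 6.02 in threat animals. The part of resident macrophages in the fall of Vcam1 was not tested. The part of the granulocyte markers, which rose as given above, in the rises of the TNF-induced list was not tested either.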

How the data were processed

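The deposited table gives each probe set's log2 signal on each array. The authors computed it by RMA (submitters' processing notes), with version and settings not given in the sources used here. The base of the log was read from the range of the values, 0.607 to 13.567. Of 45037 probe sets that are not controls, 34945 named 1 gene through the platform's annotation, updated by Entrez number to RefSeq symbols of GRCm38.p6 (34741 matched). For each gene the probe set with the highest mean was kept, if that mean reached the 40th percentile of all probe sets, 2.66, below which signal was taken as background; 13078 of 18193 genes passed.

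Threat minus control was fitted over all tested genes with limma 3.58.1 in R 4.3.3 (lmFit and eBayes, 2 groups, no covariate, equal weights, two-sided), adjusted with Benjamini-Hochberg at 0.05. SE is limma's moderated standard error, SD the spread between arrays, and the number of arrays limits the precision. Normalization makes arrays alike, so a change in total RNA per cell is not seen. Members and gene lists were chosen with earlier results of these data known. Members called at 0.5 or more, and Tnf, are given by array; other lists by their 3 largest called differences. Tifa, Pax5, Cd3e, Ncr1, Cxcl1, Ccl20, Cd79a, Adgre1, Slc40a1 and Spic were added after their values were seen. So were Nfkbia, Traf1, Zfp36, Tnfaip3, Birc3 and the array values of further members. Tested on simulated data for this comparison with 13078 genes, limma recovered 44% of 50 genes changed by 0.25, 88% at 0.5, 98% at 1 and 100% at 2, with 13 false calls. Only 50 genes were changed at each of these sizes, far fewer than the 5995 genes called in the real data. The Benjamini-Hochberg cut was therefore stricter in the simulation, and the shares recovered do not carry over to the real comparison.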

Additional observations from a re-analysis of the deposited data

Results flagged for a closer look

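In 4 of the 32 members measured, 1 of the 6 threat animals stood far from the others by Dixon's test, which flags about 1 in 20 groups by chance. Tnf was low in threat animal 1, at 10.522 against 10.746 to 10.842 in the others. Tnfrsf1b was low in threat animal 4, at 10.506 against 10.571 to 10.601. Tnfrsf18 was low in threat animal 2, at 4.117 against 4.254 to 4.309. Tnfrsf23 was low in threat animal 3, at 4.139 against 4.364 to 4.497. A different animal stood apart in each gene.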

How the results depend on the processing

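The alternatives were no filter or one at the 60th percentile, averaged probe sets per gene, probe sets specific to a single transcript, other probe sets, quantile normalization, median centring, limma with a trend and robust moderation, pools at weight 2, threat animals averaged in number pairs, a replicate block, an exact permutation test and leaving out each array. All 11 members with a called difference of at least 0.5 kept direction and stayed under 0.05 in all 224 results, with adjusted p up to 0.00222 in limma. The exact permutation p among these results was not adjusted, so it is a looser criterion than the limma calls. It was 0.0119 for each of the 11, the smallest that 84 divisions allow. Genes picked for large called differences are likely to reach that value, so it adds little. Counts ran from 6 to 7 called ligands and from 11 to 14 called receptors. The shedding list went from 3 calls to 1 without a filter and with averaged pairs, and to between 1 and 2 when 1 array was left out; in each case Adam17 was left, and the cause was not tested. Uncalled Tnfrsf22 turned to 0.0388 with the mean of probe sets, 0.0135 with specific or other probe sets and 0.0205 after quantile normalization, and Tnfrsf23 to 1e-04 after quantile normalization. Leaving out 1 array put the difference of Tnfrsf23 between -0.0543 and 0.0173 (the latter without threat animal 3). With a replicate block that ties threat animals to the pool of their numbers, 7 ligands and 14 receptors were called; deviations of a pool and of its numbered animals correlated at 0.149, -0.152 and -0.029, so the numbers were not taken as pairs. The scalings moved the median of all genes from 0.029 to at most 0.045.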
